A study of Homo sapiens with 4 samples.

Results

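The 43 genes described here encode proteins of the DNA replication fork and of replication origins: the 3 replicative DNA polymerases with their subunits, the sliding clamp and its loader, the GINS complex and CDC45, the kinase that fires origins, lagging-strand enzymes, the single-strand binding protein RPA, the origin recognition complex (ORC), the chromatin assembly factor CAF-1 and fork protection proteins. They were chosen by gene symbol from a table of 17141 genes, and all 43 were among the 15162 genes tested. RNA was sequenced from LNCaP, an androgen-sensitive human prostate cancer line. Per the study's methods, LNCaP-RRM2 is a stable line made with a lentiviral vector that encodes RRM2, and puromycin selection maintained it. LNCaP-EV carries the empty vector. Each group had 2 libraries, and all 4 libraries came from LNCaP cells. The methods say that all cells were kept in media with fetal bovine serum, glutamine, penicillin and streptomycin. Whether a line is 1 clone, and whether its pair of libraries stems from separate cultures, is not given in the sources used here, so the p-values speak of the spread among these 4 libraries, which could be technical.

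Replication begins when ORC marks an origin and a helicase ring of MCM proteins is loaded there. The kinase CDC7, activated by DBF4, then lets CDC45 and GINS join that ring to form the active helicase. DNA polymerase alpha-primase lays down primers. Polymerase epsilon extends the leading strand and polymerase delta the lagging strand, and both of these are held to the template by the PCNA clamp. Many of these genes are transcribed as cells pass from G1 into S phase, under E2F factors. RRM2, the small subunit of ribonucleotide reductase, helps to make the deoxyribonucleotides that these polymerases use.

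Because E2F factors bind many replication promoters, the 250 bases before each gene start in RefSeq (GRCh38.p14) were searched on both strands for TTTCCCGC, TTTCGCGC, TTTGCCGC and TTTGGCGC. A promoter entry matched 38 of the 43 genes (none was matched for POLD3, GINS4, DNA2, RPA2 and RPA3). At least 1 match was found in 9 of the 38 promoters (23.7%), against 4.35% of 11282 promoters of genes tested and 2.79% of all 27305 promoters. The other cell cycle element searched, TTTGAA of the cell cycle genes homology region, was found in 0 of the 38 promoters, against 8.61% of promoters of genes tested and 13.6% of all promoters. The 9 matches nearest to the gene start are shown with up to 11 bases on each side, on the strand of the gene, with the match in capitals, since they let the promoters of genes that were called lower be read beside those that were not. The first 4 belong to genes called lower in LNCaP-RRM2 and the other 5 to genes that were not called:
POLA1: gtcatcacaggGCGCCAAAcgcgcgtccgc
POLA2: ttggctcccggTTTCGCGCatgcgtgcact
PCNA: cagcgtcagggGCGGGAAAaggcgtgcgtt
GINS2: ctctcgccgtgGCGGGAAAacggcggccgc
POLE: tgggtgggagcGCGCCAAAtttctcccct
POLE4: ctccagcccgcGCGGGAAAgggcctgcgcc
RFC3: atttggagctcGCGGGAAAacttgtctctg
LIG1: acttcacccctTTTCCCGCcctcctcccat
ORC3: cgcgagggcgcGCGGGAAAtccc
These lie at chrX:24693770-24693799 (plus strand), chr11:65261898-65261927 (plus), chr20:5126663-5126692 (minus), chr16:85688967-85688996 (minus), chr12:132687343-132687371 (minus), chr2:74958601-74958630 (plus), chr13:33818083-33818112 (plus), chr19:48170440-48170469 (minus) and chr6:87590112-87590134 (plus), in the order shown. PCNA, GINS2, POLE4, RFC3 and ORC3 share the letters GCGGGAAA, which read TTTCCCGC on the other strand, the match shown for LIG1. POLA1 and POLE share GCGCCAAA. The first base of the match stood at position -137 from the start of POLA1, at -53 for POLA2, at -59 for PCNA and at -31 for GINS2. Of the promoters with an entry, 4 of 24 (16.7%) held a match among genes called lower and 5 of 14 (35.7%) among genes not called. Of those 5 genes, POLE, POLE4, RFC3 and ORC3 passed the test as lower below the fold limit, and among the genes that did not pass at all 1 of 7 (14.3%, LIG1) held a match. A match is a string of letters and not a measured binding site.

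RRM2 itself checks the labels. It had 9291 and 8979 CPM (counts scaled to a common library total) in the LNCaP-RRM2 libraries, against 318 and 343 CPM in the LNCaP-EV libraries. Both LNCaP-RRM2 libraries lay far above both LNCaP-EV libraries, with a log2 fold change of 4.79 and a standard error (SE) of 0.10 (adjusted p = 0.000282 by edgeR's quasi-likelihood test, Benjamini-Hochberg). Library totals ranged from 26601061 to 32601519 counts, and a fork or origin gene had between 184 and 10202 counts in a library. Replicates differed by more than counting error, with a chi-square over its degrees of freedom of 7.35 for the LNCaP-RRM2 pair and 22 for the LNCaP-EV pair, so each was kept. The LNCaP markers KLK3 and TMPRSS2 were abundant in all 4 libraries: KLK3 had 4976 and 5251 CPM in LNCaP-RRM2 against 2975 and 2706 CPM in LNCaP-EV, and TMPRSS2 had 905 and 897 CPM in LNCaP-RRM2 against 396 and 375 CPM in LNCaP-EV. Of 14 markers of blood, endothelial, fibroblast, basal and neuroendocrine cells, 5 were tested and 3 of them (CD68, COL1A1 and KRT14) were higher in LNCaP-RRM2. The tested markers summed to 72.2 and 63.8 CPM in LNCaP-RRM2 and to 28.9 and 22.3 CPM in LNCaP-EV. The defining markers PTPRC, CD3E, PECAM1, DCN, KRT5, TP63 and CHGA were not analysed here, LYZ and COL1A2 fell below the filter on low counts, and the part of other cells in the results was not tested.

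Most replication fork and origin genes were lower in LNCaP-RRM2. Of the 43 genes, 27 were called lower and 0 higher at an adjusted p below 0.05 and a fold above 1.5. Over all genes tested, the same rule called 7.96% lower and 12.5% higher. With no fold limit, 36 of the 43 passed as lower and 0 as higher, where 24.4% of all genes tested passed as lower and 17.8% as higher. Neither DESeq2's Wald test nor limma-voom called any of the 43 higher, where they called 1768 and 1917 of all genes tested higher. The median log2 fold change of the 43 genes was -0.75, in a range of -1.23 (CLSPN) to 0.21 (POLD1), beside a median of -0.03 over all genes tested. Their summed level was 2195 and 2205 CPM in the LNCaP-RRM2 libraries and 3470 and 3454 CPM in the LNCaP-EV libraries. In 40 of the 43 genes both LNCaP-RRM2 libraries lay below both LNCaP-EV libraries, which held for 40.9% of all genes tested; the groups overlapped for POLD1, POLD4 and LIG1. In bulk RNA, fewer cells in the phase that expresses these genes and less RNA per cell cannot be told apart.

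**Figure D1:**
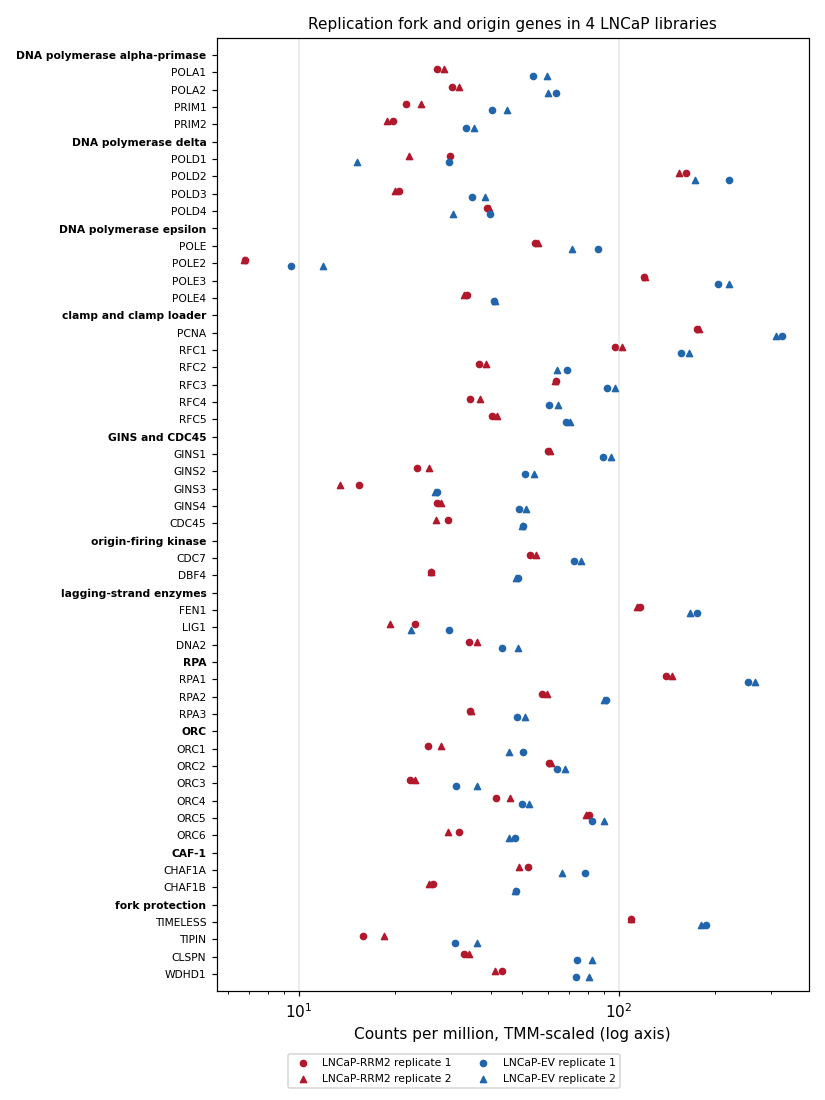
Level of each of the 43 genes in the 4 libraries, in TMM-scaled CPM on a log axis, by role. Red symbols are the LNCaP-RRM2 libraries and blue symbols the LNCaP-EV libraries (circle, replicate 1; triangle, replicate 2), and red lies left of blue for 40 genes, with overlap for POLD1, POLD4 and LIG1.

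The calls differed in how many alternative analyses they held under. A total of 8 calls (POLA1, POLA2, POLE3, PCNA, GINS2, DBF4, RPA1 and CLSPN) held under all 16 alternative analyses, which changed the scaling, the filter, the test or the libraries. Another 2, TIMELESS and WDHD1, were lost only when the test itself was set against a fold of 1.5. Without LNCaP-RRM2 replicate 1, many calls that held and many that were lost lay close to the threshold on either side. These counts are therefore no ranking of the genes. In a fit without 1 LNCaP-RRM2 library the spread within groups comes from the LNCaP-EV pair alone, and there 11 genes were called lower without replicate 1 and 19 without replicate 2, where 1.54% and 2.76% of all genes tested were called lower. Without LNCaP-EV replicate 1 the fit called 28 genes lower, RFC3 and ORC3 newly so, and without LNCaP-EV replicate 2 it called 22, where 9.66% and 4.83% of all genes tested were called lower.

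DNA polymerase alpha-primase, which makes the RNA-DNA primers of both strands, was lower in all 4 of its subunits, with a median log2 fold change of -0.94. POLA1, the catalytic subunit, had 27.1 and 28.4 CPM in LNCaP-RRM2 against 53.9 and 59.7 CPM in LNCaP-EV. Both LNCaP-RRM2 libraries lay well below both LNCaP-EV libraries, with a log2 fold change of -1.03 (SE 0.09, adjusted p = 0.00287 by edgeR). PRIM2, the large primase subunit, had 19.7 and 18.9 CPM in LNCaP-RRM2 against 33.3 and 35.3 CPM in LNCaP-EV, again without overlap (log2 fold change -0.83, SE 0.10, adjusted p = 0.00402). POLA2, the regulatory B subunit, and PRIM1, the catalytic primase subunit, had log2 fold changes of -1.0 and -0.89 and were called lower. The CPM of POLA1 over that of POLA2 was 0.900 and 0.895 in LNCaP-RRM2 and 0.845 and 0.995 in LNCaP-EV, with overlap. PRIM1 shares exon bases with NACA and HSD17B6 in GENCODE 29, and reads of the genes may not be told apart. Without LNCaP-RRM2 replicate 1 the adjusted p was 0.0643 for PRIM1 and 0.0606 for PRIM2, and without LNCaP-RRM2 replicate 2 it was 0.0567 for PRIM2.

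Of the 4 subunits of DNA polymerase delta 1 was called lower and the other 3 did not pass the test. POLD3, an accessory subunit that stabilises the complex, had 20.6 and 20.0 CPM in LNCaP-RRM2 against 34.8 and 38.3 CPM in LNCaP-EV. Its groups were well apart, with a log2 fold change of -0.85 (SE 0.10, adjusted p = 0.00416 by edgeR). POLD1, the catalytic subunit, had 29.7 and 22.2 CPM in LNCaP-RRM2 against 29.6 and 15.2 CPM in LNCaP-EV. Its LNCaP-EV libraries were far apart, by 0.96 on the log2 scale, the groups overlapped, and the log2 fold change of 0.21 (SE 0.33) did not pass (adjusted p = 0.628). POLD2, which joins the catalytic and accessory subunits, had a log2 fold change of -0.32 (adjusted p = 0.0853), and the small subunit POLD4 had 0.16 (adjusted p = 0.395). These values depended on a library and on base composition. POLD1 had a log2 fold change of 0.78 without LNCaP-EV replicate 1, a fit in which it was called higher. It had -0.10 without LNCaP-EV replicate 2, -0.02 without LNCaP-RRM2 replicate 1 and 0.41 without LNCaP-RRM2 replicate 2. The log2 fold change of POLD4 was 0.37 without LNCaP-EV replicate 1 and 0.07 without LNCaP-EV replicate 2. With a trend by transcript GC content removed from each library POLD1 had -0.39, POLD4 -0.32 and POLD2 -0.67. All 4 subunits then passed as lower, POLD2 and POLD3 beyond the fold limit. With the removed trend centred on the mean over genes, POLD1 (-0.28, edgeR adjusted p = 0.0700) and POLD4 (-0.21, 0.0643) did not pass. In that variant POLD2 passed below the fold limit (-0.56) and POLD3 was called lower (-0.64). POLD3 lost its call without LNCaP-RRM2 replicate 1 (adjusted p = 0.0608) and replicate 2 (0.0555).

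DNA polymerase epsilon, the leading-strand polymerase, passed the test as lower in all 4 subunits, of which 2 went beyond the fold limit. POLE3, a histone-fold subunit, had 119.9 and 121 CPM in LNCaP-RRM2 against 204 and 221 CPM in LNCaP-EV (log2 fold change -0.82, SE 0.07, adjusted p = 0.00262 by edgeR). Its histone-fold partner POLE4 had 33.7 and 32.9 CPM in LNCaP-RRM2 against 40.9 and 41.1 CPM in LNCaP-EV, a smaller step that passed without reaching the fold limit (log2 fold change -0.30, SE 0.08, adjusted p = 0.0350). The CPM of POLE3 over that of POLE4 was 3.56 and 3.67 in LNCaP-RRM2 and 4.99 and 5.37 in LNCaP-EV, with no overlap. POLE2, the B subunit, was called lower at -0.66 (SE 0.16), and the catalytic subunit POLE passed below the fold limit at -0.51 (SE 0.11). POLE2 had fewer counts than any other of the 43 genes in each library, with 6.82 and 6.75 CPM in LNCaP-RRM2 and 9.49 and 11.9 CPM in LNCaP-EV, and its call was lost under 9 of the 16 alternatives, among them the fits without either LNCaP-RRM2 library or without LNCaP-EV replicate 2 (log2 fold change -0.40). POLE, whose transcripts are rich in GC, was called lower with the GC trend removed (-0.73).

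**Figure D2:**
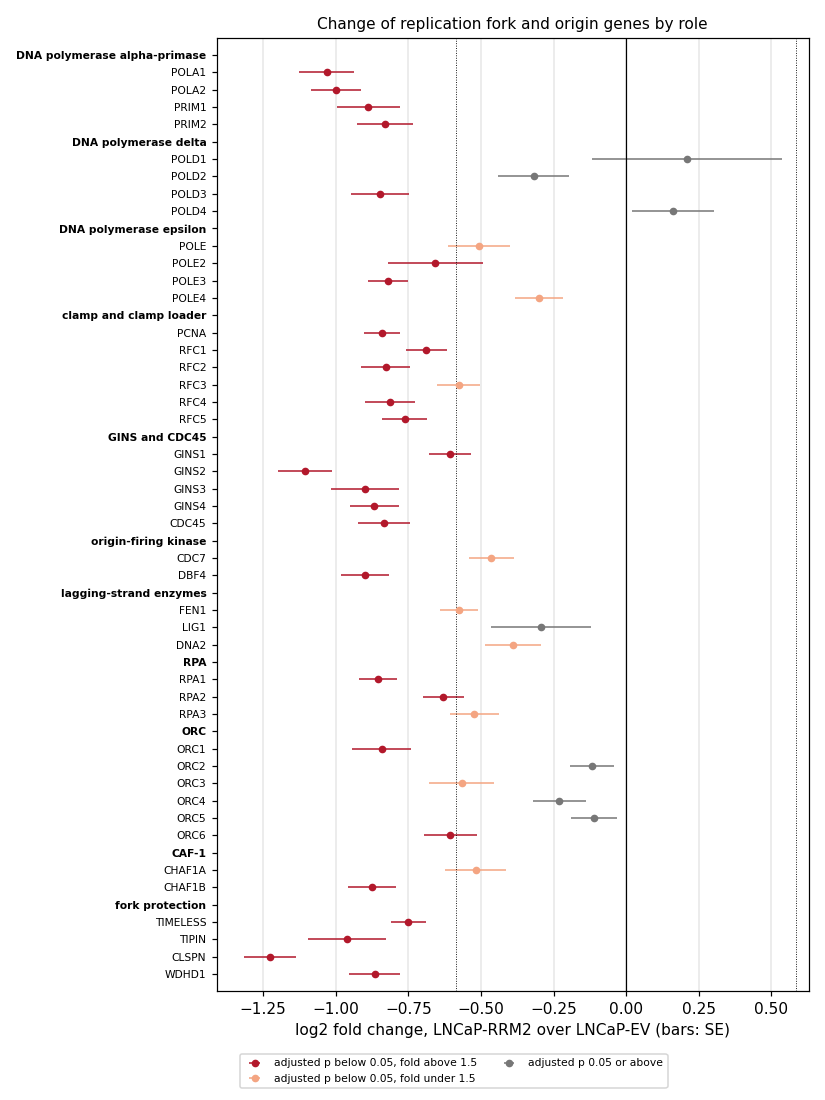
Log2 fold change of each of the 43 genes, LNCaP-RRM2 over LNCaP-EV, by role, with bars of 1 SE. Red marks the 27 genes called lower, orange the 9 that passed below a fold of 1.5 and grey the 7 that did not pass; thin vertical lines mark a fold of 1.5, and POLD1 and POLD4 are right of 0.

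The sliding clamp and its loader were lower throughout, with 5 of 6 genes called. PCNA, the ring that tethers polymerases to DNA, had 176 and 178 CPM in LNCaP-RRM2 against 323 and 310.4 CPM in LNCaP-EV. This was a drop with little spread in either group (log2 fold change -0.84, SE 0.06, adjusted p = 0.00233 by edgeR). The loader RFC opens the ring and places it on primed DNA, and its subunits RFC1, RFC2, RFC4 and RFC5 were called lower at -0.69, -0.83, -0.81 and -0.76. RFC3 had 63.8 and 63.1 CPM in LNCaP-RRM2 against 91.7 and 97.6 CPM in LNCaP-EV, and its log2 fold change of -0.58 (SE 0.07, adjusted p = 0.00470) stopped just short of the fold limit. Without LNCaP-RRM2 replicate 1 the 4 called loader subunits missed the threshold, with adjusted p between 0.0552 and 0.0601, and without LNCaP-EV replicate 2 RFC1 fell below the fold limit (-0.56). PCNA, RFC3 and RFC5 have pseudogenes named after them in GENCODE 29, to which reads could be shared. RFC4 shares exon bases with EIF4A2 and RFC5 with WSB2, each on the opposite strand.

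All 5 genes of GINS and CDC45, the helicase partners, were called lower, with a median log2 fold change of -0.87. GINS2 had 23.4 and 25.5 CPM in LNCaP-RRM2 against 51.0 and 54.3 CPM in LNCaP-EV, with no overlap (log2 fold change -1.11, SE 0.09, adjusted p = 0.00266 by edgeR). GINS1 had 60.0 and 60.9 CPM in LNCaP-RRM2 against 89.5 and 94.7 CPM in LNCaP-EV, which put it just beyond the fold limit (log2 fold change -0.61, SE 0.07, adjusted p = 0.00424). GINS3, GINS4 and CDC45 had -0.90, -0.87 and -0.83. The 4 GINS proteins form one complex, and the CPM of GINS2 over that of GINS1 was 0.391 and 0.418 in LNCaP-RRM2 and 0.570 and 0.574 in LNCaP-EV. The GINS1 call was lost under 12 of the 16 alternatives, in 9 of which the test passed and the fold fell below the limit. Without LNCaP-RRM2 replicate 1 the adjusted p was 0.0714 for GINS1, 0.0521 for GINS3 and 0.0538 for GINS4, and without LNCaP-RRM2 replicate 2 it was 0.0613 for GINS1, 0.0604 for GINS3 and 0.0533 for CDC45. GINS2 shares exon bases with GSE1 on the opposite strand, and no source used here says if reads were counted by strand.

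The origin-firing kinase was lower in both subunits, 1 of them beyond the fold limit. DBF4, the regulatory subunit that activates the kinase, had 25.9 and 25.9 CPM in LNCaP-RRM2 against 48.5 and 47.9 CPM in LNCaP-EV. The spread within either group was small beside the difference (log2 fold change -0.90, SE 0.08, adjusted p = 0.00293 by edgeR). CDC7, the catalytic subunit, had 52.9 and 55.1 CPM in LNCaP-RRM2 against 72.6 and 76.3 CPM in LNCaP-EV (log2 fold change -0.46, SE 0.08, adjusted p = 0.00852). The CPM of DBF4 over that of CDC7 was 0.489 and 0.470 in LNCaP-RRM2 and 0.669 and 0.628 in LNCaP-EV.

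None of the 3 lagging-strand enzymes reached the fold limit, and 2 of them passed as lower. FEN1, the flap endonuclease that trims Okazaki fragments, had 116 and 114 CPM in LNCaP-RRM2 against 176 and 167 CPM in LNCaP-EV, which passed just under a fold of 1.5 (log2 fold change -0.57, SE 0.07, adjusted p = 0.00376 by edgeR). DNA2, a nuclease and helicase that cuts long flaps, passed at -0.39 (SE 0.10). LIG1, the ligase that seals the fragments, had 23.1 and 19.3 CPM in LNCaP-RRM2 against 29.6 and 22.4 CPM in LNCaP-EV. Its groups overlapped and the log2 fold change of -0.29 (SE 0.17) did not pass (adjusted p = 0.215). With the GC trend removed, FEN1 (-0.68) and LIG1 (-0.73) were both called lower. With the removed trend centred on the mean over genes, LIG1 was called (-0.62) and FEN1 passed below the fold limit (-0.57). FEN1 shares exon bases with FADS2 and TMEM258 and has a named pseudogene.

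RPA, which coats single-stranded DNA at the fork, was lower in all 3 subunits. RPA1, the large DNA-binding subunit, had 141 and 146 CPM in LNCaP-RRM2 against 253 and 267 CPM in LNCaP-EV, with the groups far apart (log2 fold change -0.85, SE 0.07, adjusted p = 0.00244 by edgeR). RPA3, the smallest subunit, had 34.3 and 34.4 CPM in LNCaP-RRM2 against 47.9 and 50.9 CPM in LNCaP-EV and passed below the fold limit (log2 fold change -0.52, SE 0.08, adjusted p = 0.00781). RPA2, the subunit that is phosphorylated under replication stress, was called at -0.63, and this call was lost under 8 of the 16 alternatives, among them the fits without either LNCaP-RRM2 library (adjusted p 0.0697 and 0.0545) or without LNCaP-EV replicate 2. The CPM of RPA1 over that of RPA3 was 4.10 and 4.25 in LNCaP-RRM2 and 5.27 and 5.24 in LNCaP-EV.

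Of the 6 ORC genes 2 were called lower, 1 passed as lower below the fold limit and 3 did not pass. ORC1, the subunit that in human cells is degraded in S phase and made anew, had 25.4 and 27.9 CPM in LNCaP-RRM2 against 50.2 and 45.3 CPM in LNCaP-EV (log2 fold change -0.84, SE 0.10, adjusted p = 0.00433 by edgeR). ORC6 was also called, at -0.61, and ORC3 was the gene below the limit, at -0.57. ORC5 had 80.8 and 78.9 CPM in LNCaP-RRM2 against 82.2 and 90.2 CPM in LNCaP-EV. Its libraries did not overlap between groups, but the difference was small beside their spread (log2 fold change -0.11, SE 0.08, adjusted p = 0.299). ORC2 and ORC4, which with ORC3 and ORC5 belong to the core of the complex, had log2 fold changes of -0.12 (adjusted p = 0.256) and -0.23 (adjusted p = 0.0951). Against ORC2, the CPM of ORC1 was 0.420 and 0.454 in LNCaP-RRM2 and 0.783 and 0.666 in LNCaP-EV. The ORC6 call was lost under 13 of the 16 alternatives, including each fit without 1 library, and ORC1 missed the threshold without LNCaP-RRM2 replicate 1 (adjusted p = 0.0652).

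CAF-1 delivers histones to newly copied DNA. CHAF1B, its middle subunit, had 26.4 and 25.6 CPM in LNCaP-RRM2 against 47.7 and 47.6 CPM in LNCaP-EV (log2 fold change -0.88, SE 0.08, adjusted p = 0.00296 by edgeR). CHAF1A, the large subunit, had 52.2 and 48.9 CPM in LNCaP-RRM2 against 78.3 and 66.5 CPM in LNCaP-EV and passed below the fold limit (log2 fold change -0.52, SE 0.11, adjusted p = 0.0145). Its LNCaP-EV libraries were further apart than those of CHAF1B, and with the GC trend removed it was called lower (-0.80). Without LNCaP-RRM2 replicate 1 the adjusted p of CHAF1B was 0.0504.

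The fork protection genes were all called lower, with a median log2 fold change of -0.91. CLSPN encodes claspin, the adaptor that passes the checkpoint signal from ATR to CHK1. It lies on chromosome 1 from 35720218 to 35769951 on the minus strand in the deposited table, whose positions match GRCh38. CLSPN had 32.9 and 34.0 CPM in LNCaP-RRM2 against 74.3 and 82.5 CPM in LNCaP-EV, the lowest log2 fold change of the 43 genes (-1.23, SE 0.09, adjusted p = 0.00233 by edgeR). TIMELESS, which binds TIPIN and travels with the fork, had 109.6 and 109.3 CPM in LNCaP-RRM2 against 187 and 181 CPM in LNCaP-EV (log2 fold change -0.75, SE 0.06, adjusted p = 0.00255). TIPIN and WDHD1, which links the helicase to polymerase alpha, were lower at -0.96 and -0.87. The CPM of CLSPN over that of TIMELESS was 0.30 and 0.31 in LNCaP-RRM2 and 0.398 and 0.455 in LNCaP-EV, while that of TIPIN over TIMELESS overlapped between groups. TIPIN missed the threshold without LNCaP-RRM2 replicate 1 (adjusted p = 0.0675).

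Within-library ratios of this kind were taken for 17 pairs chosen after their values had been seen, and in 14 of them the groups did not overlap. They compare each pair between libraries and not the levels of 2 genes, since CPM is not per length. They were not tested, since the pairs were picked by their values. An exact permutation test of 2 against 2 libraries cannot go below a two-sided p of 0.333.

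Ratios between libraries varied with the GC content of the genes' transcripts. In deciles of genes by GC, the pair of LNCaP-RRM2 libraries differed (replicate 1 over 2, median log2 ratio) by -0.05 to 0.27 and the pair of LNCaP-EV libraries by -0.11 to 0.67, while the median log2 fold change of LNCaP-RRM2 over LNCaP-EV ran between -0.23 in the lowest and 0.54 in the highest decile. The transcripts of the 43 genes had a median GC of 45.9%, against 49.5% over all genes tested. The 13 genes above that 49.5% had a median log2 fold change of -0.52, where decile medians of all genes above it ran from -0.09 to 0.54. The 30 others had a median of -0.82, where decile medians of all genes up to 49.5% ran from -0.23 to -0.15. Across the 43 genes the log2 fold change had a Pearson r of 0.30 and a Spearman rho of 0.10 with GC, and the log2 ratio of the LNCaP-EV libraries had 0.84 and 0.77. These are descriptions across genes of the same 4 libraries. After a GC trend was removed from each library, an alternative chosen after the data were seen, 29 of the 43 genes were called lower (10.7% of all genes tested) and 0 higher, all 43 had a log2 fold change below 0, and the median was -0.74 where that of all genes tested was -0.12. Genes that gained a call were POLD2, POLE, FEN1, LIG1 and CHAF1A, and those that lost one were POLE2, GINS1 and ORC6. POLD1 (adjusted p = 0.00619) and POLD4 (adjusted p = 0.0115) then passed as lower below the fold limit. The log2 fold changes of ORC2 (-0.02) and ORC5 (-0.02) lay near 0 in that fit. A variant that centred the removed trend on the mean over genes gave 0.09 for each. In that variant 25 of the 43 genes were called lower (6.63% of all genes tested) and 0 higher. Of the 43 genes, 41 had a log2 fold change below 0 there, and the median of all genes tested was -0.01. POLE, LIG1 and CHAF1A gained a call in it, and POLE2, RFC1, GINS1, RPA2 and ORC6 lost one.

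**Figure D3:**
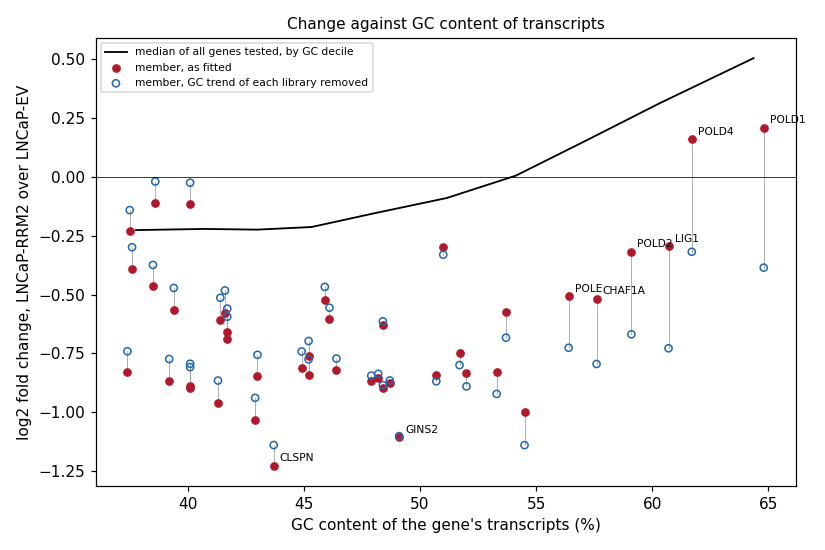
Log2 fold change, LNCaP-RRM2 over LNCaP-EV, against the GC content of each gene's transcripts for the 43 genes, before (red) and after (open blue) removal of the GC trend of each library, with the median of all genes tested by GC decile as a line. POLD1 and POLD4 lie above 0 before removal (0.21 and 0.16) and below it after (-0.39 and -0.32), while CLSPN has -1.23 before and -1.14 after.

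Other replication genes were described from 6 lists that hold none of the 43. Of their 52 genes 21 were called lower and 0 higher by edgeR, where 7.96% and 12.5% of all genes tested were. With no fold limit 32 passed as lower and 2 as higher, where 24.4% and 17.8% of all genes tested did. The median log2 fold change of the 52 genes was -0.48. Of the 10 licensing genes, which load the MCM ring or restrain its loading, 7 were called lower, with a median of -0.79. CDC6, the loader that ORC recruits, had 54.6 and 54.0 CPM in LNCaP-RRM2 against 124.9 and 129.7 CPM in LNCaP-EV (log2 fold change -1.23), and the ring subunit MCM4 had 158 and 151 CPM in LNCaP-RRM2 against 276 and 276 CPM in LNCaP-EV (-0.84). Of 7 firing factors 4 were called, among them MCM10 (-0.96) and TOPBP1 (-0.74). Of 5 genes for alternative clamp loaders 2 were called, DSCC1 (-0.85), of the loader for sister chromatid cohesion, and ATAD5 (-0.65), which unloads PCNA.

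A list of 16 genes of repair and translesion polymerases also held the mitochondrial POLG and POLG2 and the polymerase-binding POLDIP2 and POLDIP3. Of these 16 genes 2 were called lower, where 7.96% of all genes tested were, and the median log2 fold change of the list was 0.02. With no fold limit 4 passed as lower and 2 as higher, where 24.4% and 17.8% of all genes tested did. The called genes were POLQ, the polymerase of microhomology-mediated end joining, with 50.2 and 51.9 CPM in LNCaP-RRM2 against 76.0 and 81.8 CPM in LNCaP-EV (-0.63), and PRIMPOL (-0.59), which primes again beyond stalled forks. POLG2, a mitochondrial polymerase subunit, and POLM, an end-joining polymerase, passed as higher below the fold limit, at 0.56 and 0.54, while POLDIP2 and POLDIP3, whose proteins bind polymerase delta, passed as lower below it, at -0.49 and -0.28. The difference between this list and the replicative polymerases was not tested. Transcript GC in the list ran from 34.7% (POLK) to 61.4% (MAD2L2), and its values with the GC trend removed are not given here. RNase H2, which removes ribonucleotides from DNA, was called in 1 of 3 genes (RNASEH2A, -0.75). Of 11 genes of replication-coupled chromatin 5 were called, among them the histone chaperone subunit SSRP1, with 168 and 182 CPM in LNCaP-RRM2 against 355 and 357 CPM in LNCaP-EV (-1.02), and PCLAF (-1.14), a PCNA-binding protein.

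**Figure D4:**
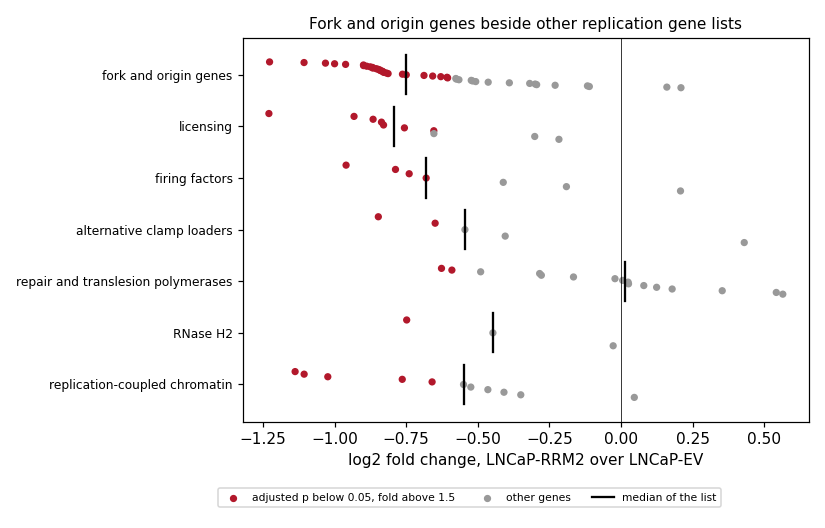
Log2 fold change, LNCaP-RRM2 over LNCaP-EV, of the 43 fork and origin genes (top row) and of 6 lists of other replication genes, with 1 point per gene and a black bar at the median. Red points are called genes; the median is -0.75 for the fork and origin genes, -0.79 for licensing and 0.02 for the repair and translesion polymerases.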

How the data were processed

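RNA of 4 LNCaP libraries (2 LNCaP-RRM2 and 2 LNCaP-EV) was analysed. Reads were paired-end and went through Partek Flow, as the study's methods say; its version, the aligner, the counting settings, the genome build and the annotation: not given in the sources used here. What the authors deposited were expected counts per gene, not scaled between libraries, of which 56.1% to 58.1% were whole in a library. Genes with a total under 10 counts are not in the table. Counts were rounded, filtered with filterByExpr (15162 of 17141 genes left) and scaled by TMM in edgeR 4.0.16 (R 4.3.3). The comparison of LNCaP-RRM2 over LNCaP-EV used the quasi-likelihood F-test with Benjamini-Hochberg adjustment over all genes tested, and genes were called at an adjusted p below 0.05 and a fold above 1.5, the study's thresholds. SE is the log2 fold change over the square root of F.

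The 43 genes, their roles, the other lists and the markers were chosen with earlier results of these data known. All 43 are named, and values in every library are given for the lowest and the highest log2 fold change of each role; of each other list, up to 2 called genes per direction with the smallest p are named. A few further values were chosen after they had been seen. GC content was the median over RefSeq-matched GENCODE 29 transcripts, found for 94.8% of genes in the table and all 43. All 43 overlapped their GRCh38 position. Exon bases were shared with another GENCODE gene by 22 of the 43 (16 with the opposite strand, 12 with a gene in the table), and 7 have named pseudogenes, so these counts are less certain. This includes some calls that held under all alternatives. POLE3 shares exon bases with C9orf43, GINS2 with GSE1, DBF4 with SLC25A40 and RPA1 with SMYD4, and PCNA and DBF4 have named pseudogenes. The code was tested on simulated data. Alternatives were other scalings (DESeq2 size factors, total counts, upper quartile), no filter, a stricter filter (1 CPM in 2 libraries and a mean of 5 CPM), limma-voom (limma 3.58.1), DESeq2's Wald test (1.42.0), a replicate block, a test against a fold of 1.5, leaving out each library and, chosen after the data were seen, removal of a lowess GC trend. Part of the LNCaP marker list is not reported here.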

Additional observations from a re-analysis of the deposited data

How the results depend on the processing

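The median log2 fold change of the 43 genes kept its direction under every alternative run, with -0.71 under DESeq2 size factors and under the DESeq2 Wald test, -0.68 with total counts, -0.67 with upper-quartile factors, -0.65 with the stricter filter and -0.63 when the removed GC trend was centred on the genes' mean, and -0.76 to -0.65 when a library was left out. A test against a fold of 1.5 called 9 of the 43 genes lower, and among all genes tested 205 lower and 387 higher. The stricter filter, which tested fewer genes, called 612 genes lower. Without 1 library, between 11 and 28 of the 43 genes were called lower and 0 or 1 higher, and over all genes tested between 234 and 1465 were lower and between 362 and 3003 higher. The share of all calls that were higher was 61.1%, against 72.4% with total counts, 75% with upper-quartile factors and 50.6% with the GC trend removed. With a replicate block 27 of the 43 genes were called lower, with a median of -0.75, and among all genes tested 1255 lower and 2346 higher. The labels do not say that a number marks a shared batch. Same-numbered libraries deviated together with a correlation of 0.64 over the 43 genes, 0.64 over genes above 5 CPM and 0.33 over all genes. POLE2, GINS1, RPA2 and ORC6, with log2 fold changes of -0.66 to -0.61, lost their call most often.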
